A study of Mus musculus with 6 samples.

Results

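The respiratory chain genes of bone were examined as 50 protein-coding genes of the 54532 genes in the deposited expression table. Of these, 13 are the protein genes of the mitochondrial genome (symbols starting with mt-), and 37 are nuclear genes whose symbols start with Nduf, followed by a, b, c, s or v and a digit, the naming pattern of complex I subunits. Complex I assembly factors (Ndufaf) were left out. RNA from bone of MIR29cb2-/- mice (3 libraries, called knockout here) was compared with RNA from bone of WT mice (3 libraries, called wild type), all labelled as female C57BL/6J mice, 16 weeks old. The knockout lacks the miR-29cb2 cluster on chromosome 1, the source of miR-29c and of 1 copy of miR-29b. Neither the bone sampled nor the handling of marrow is named in the labels, and nothing there ties a library to a separate animal. The p-values therefore reflect spread among libraries, part of which could be technical.

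Complex I is the entry enzyme of the mitochondrial respiratory chain. It takes electrons from NADH, passes them to ubiquinone and pumps protons across the inner membrane. Its core subunits come from both genomes: the membrane arm has a proton-pumping core of mitochondrial-encoded Nd proteins, and the matrix arm has a nuclear-encoded core that binds NADH and carries the iron-sulfur clusters. Accessory subunits, all nuclear-encoded, surround this core. The mitochondrial genome also encodes cytochrome b of complex III, the catalytic core of complex IV (cytochrome c oxidase) and a pair of subunits of complex V (ATP synthase). In bone, osteoclasts are known for their many mitochondria.

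Values are FPKM, fragments per kilobase of exon after a scaling of each library whose method is not given in the sources used here. Division by exon length allows levels of different genes to be compared. Each library held 16727111 to 20118034 recovered reads, and 13619 genes with a mean of at least 1 FPKM were tested. Knockout replicate 1 and wild-type replicate 2 stood apart from the other libraries. The deviation of genes from their group mean fell with exon length in these (Spearman's rho across genes of -0.45 and -0.42). It rose with exon length in the other 4 libraries (0.18 to 0.41). Deviations within a group sum to 0, so a fall in 1 library goes with a rise among the others of its group. A330023F24Rik, the noncoding host transcript of the cluster on chromosome 1, was listed at 2.51, 3.25 and 4.08 FPKM in knockout replicates 1 to 3. It was at 0.197, 0.153 and 0.136 FPKM in wild-type replicates 1 to 3. Every knockout library lay above every wild-type library, and the gene was called higher (log2 change 1.87, limma adjusted p = 0.00676). Loss of this transcript therefore does not check the labels, although its level separates the groups as labelled. Mir29b-2 and Mir29c were listed at 0 in all 6 libraries, and mature microRNAs are too short for such libraries. The osteoblast list (10 genes, among them Alpl and Sp7) passed the filter whole, as did the neutrophil (12) and B cell (10) lists, so markers of bone and of marrow cells were both present.

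The deleted cluster makes microRNAs that pair with messages through their seed, bases 2 to 8 of the mature strand. Both 3p strands share the seed, shown in capitals in the RefSeq sequences below, because it defines which messages could pair with them.
mmu-miR-29b-3p: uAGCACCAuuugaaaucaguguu
mmu-miR-29c-3p: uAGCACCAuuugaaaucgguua
Mature miR-29b-3p is also encoded by Mir29b-1 on chromosome 6, outside the cluster. Mir29a, on the same chromosome, encodes miR-29a-3p, which has the same seed. The letters TGGTGCT, the reverse complement of the seed, were searched on the sense strand of annotated 3′ UTRs. Of the 37 nuclear genes, 1 held a match, which is 2.70% of them, against 18.8% of the 11662 protein-coding genes tested that have an annotated 3′ UTR. The median of the longest annotated 3′ UTR was 289 bases in the nuclear members and 1299.5 bases in all those genes. The match lay in Ndufb8, a membrane-arm accessory subunit on chromosome 19, and is in capitals in its surroundings.
Ndufb8 site: cactgcatgTGGTGCTcagacattc
Ndufb8 stood at 25.1, 19.1 and 21.2 FPKM in knockout replicates 1 to 3, against 23.3, 32.6 and 23.4 FPKM in wild-type replicates 1 to 3. The groups overlapped, and the gene did not pass the test (log2 change -0.26, limma adjusted p = 0.477). No 3′ UTR is annotated for the mitochondrial genes.

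The mitochondrial genes have near-identical copies in the nuclear genome, and this bears on how their levels can be read. On chromosome 1 (mm10, bases 24611535 to 24616197), 7 annotated pseudogenes stand in the same neighbour order as their mitochondrial counterparts. The copies of mt-Co2, mt-Atp6, mt-Co3 and mt-Nd4l were 100% identical to the mitochondrial gene over 681, 678, 783 and 294 bases, and that of mt-Nd4 over 876 of its 1378 bases. The copy of mt-Co1 covered 492 of 1545 bases at 98.8% identity. The copy of mt-Nd3 (Gm28438) differed by 1 substitution in 345 bases, T3C, counted from 1 at the gene's first base. The first 120 bases of both are shown, with the differing base in capitals, because they show how little sequence could tell the 2 genes apart.
mt-Nd3: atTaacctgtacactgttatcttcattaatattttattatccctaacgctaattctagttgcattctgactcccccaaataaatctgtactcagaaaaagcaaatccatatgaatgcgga
Gm28438: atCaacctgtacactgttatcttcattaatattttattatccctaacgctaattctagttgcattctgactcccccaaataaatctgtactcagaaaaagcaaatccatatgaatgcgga

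Listed levels of the mitochondrial genes, as means over the 6 libraries, ran from 7128 FPKM for mt-Co1 to 1.86 FPKM for mt-Atp8. The share of each gene's 50-base stretches that also occur in another annotated gene was 97.99% to 100% for mt-Co2, mt-Atp6, mt-Co3, mt-Nd3 and mt-Nd4l, and these 5 had means of 25.1 to 111 FPKM. That share was 51.1% for mt-Co1 and 62.2% for mt-Nd4 (mean 1549 FPKM). It was 8.19% or less for mt-Cytb (4207 FPKM), mt-Nd1 (3910 FPKM), mt-Nd2 (2022 FPKM), mt-Nd6 (1428 FPKM), mt-Nd5 (1160 FPKM) and mt-Atp8. Thus the genes with nearly all stretches shared stood below every other gene except mt-Atp8, which shares none. The treatment of reads with several matches is not stated in the labels, and the part of shared sequence in these levels was not tested.

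**Figure D1:**
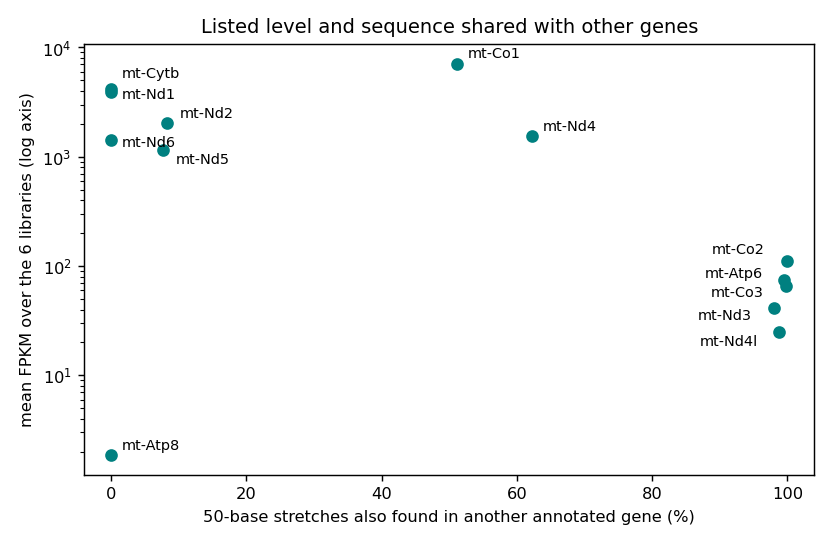
Mean FPKM over the 6 libraries (log axis) against the percentage of each mitochondrial gene's 50-base stretches that occur in another annotated gene. The 5 genes at 97.99% to 100% lie between 25.1 and 111 FPKM, and mt-Atp8, at 0% and 1.86 FPKM, lies apart from both clusters.

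mt-Atp6, which encodes the proton channel subunit of ATP synthase, was listed at 56.5, 50.1 and 90.2 FPKM in knockout replicates 1 to 3 and at 82.5, 97.2 and 70.6 FPKM in wild-type replicates 1 to 3. Its identical copy Gm10925 was listed at a like level, 59.5, 54.7 and 79.3 FPKM in the knockout and 81.5, 105 and 76.0 FPKM in wild type. By contrast, Gm29216, the partial copy of mt-Co1, was at 30.3 to 51.2 FPKM in knockout and 41.6 to 85.7 FPKM in wild-type libraries, far below mt-Co1. mt-Atp8, the accessory ATP synthase subunit, overlaps mt-Atp6 by 43 of its 204 bases. It had 7, 4 and 10 reads in knockout replicates 1 to 3 and 6, 5 and 9 reads in wild-type replicates 1 to 3. On chromosome 1, 233 bases lie between the copies of mt-Atp6 and mt-Co2, against 230 bases between those genes in the mitochondrial genome, and the sequence of that nuclear interval was not used here.

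Mitochondrial-encoded RNA was not called different between knockout and wild-type bone. In 11 of the 13 genes the knockout mean was lower, at 0.652 to 0.923 times the wild-type mean, but the groups overlapped in every case. None passed the test over all genes (limma, 0 of 13 at an adjusted p under 0.05), none had an unadjusted p under 0.05, and voom on the recovered reads also called 0. Among all genes tested, 5.16% passed, 1.34% higher and 3.82% lower, and 20.6% had an unadjusted p under 0.05. The log2 change was below 0 in 11 of 13 mitochondrial genes, against 40.9% of all genes, with a median of -0.38, against 0.06 for all genes. The changes ranged from -0.56 to 0.14. Leaving out 1 library gave medians from -0.53 (without knockout replicate 3) to -0.22 (without wild-type replicate 2). The median was -0.24 without knockout replicate 2, -0.45 without wild-type replicate 3 and -0.16 without both libraries that stood apart.

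The complex I subunits come first. mt-Nd1, at the junction with the matrix arm, stood at 3174, 2908 and 3744 FPKM in knockout replicates 1 to 3, against 3947, 6106 and 3581 FPKM in wild-type replicates 1 to 3. Wild-type replicate 2 was the highest of all, and knockout replicate 3 lay above wild-type replicate 3 (log2 change -0.44, SE 0.34, limma adjusted p = 0.534). mt-Nd2, an antiporter-like subunit, stood at 1434, 1385 and 2150 FPKM in the knockout and 2307, 2862 and 1992 FPKM in wild type. Here knockout replicates 1 and 2 were the lowest libraries and only knockout replicate 3 reached into the wild-type range (log2 change -0.54, SE 0.30, limma adjusted p = 0.379). mt-Nd4, also antiporter-like, had 1297, 1103 and 1608 FPKM in the knockout and 1595, 2308 and 1387 FPKM in wild type, with a log2 change of -0.38.

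mt-Nd5, the antiporter-like subunit at the far end of the membrane arm, followed another order. It stood at 692, 1104 and 1546 FPKM in knockout replicates 1 to 3 and at 1550, 785 and 1285 FPKM in wild-type replicates 1 to 3. Its lowest libraries were knockout replicate 1 and wild-type replicate 2, the pair that stood apart by exon length. mt-Nd5 is the longest of the 13 genes at 1824 bases. mt-Nd4l, at 297 bases, was also lowest within each group in these libraries (13.6 and 24.5 FPKM). mt-Nd4, at 1378 bases, was highest in wild-type replicate 2. The part of gene length in this order was not tested. The ratio of mt-Nd5 to mt-Nd1 was 0.218 in knockout replicate 1 and 0.129 in wild-type replicate 2, against 0.359 to 0.413 in the other 4. The difference between genotypes was small (log2 change -0.14, SE 0.39, limma adjusted p = 0.889). mt-Nd6, the only protein gene read from the other strand, stood at 1384, 1068 and 1441 FPKM in the knockout and at 1396, 2012 and 1270 FPKM in wild type (log2 change -0.25). It overlaps mt-Nd5 by 14 bases, and the labels do not state whether counting used strand.

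The small subunits mt-Nd3 and mt-Nd4l, with nearly all stretches shared, had changes of opposite sign. mt-Nd3 had 53.2, 28.1 and 45.7 FPKM in knockout replicates 1 to 3, against 30.3, 58.6 and 34.2 FPKM in wild-type replicates 1 to 3 (log2 change 0.05). mt-Nd4l had 13.6, 20.5 and 31.1 FPKM in the knockout, against 32.5, 24.5 and 28.4 FPKM in wild type (log2 change -0.44, limma adjusted p = 0.448). Over the 7 mitochondrial complex I subunits the median log2 change was -0.38, with 6 below 0.

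Of the other complexes, mt-Cytb, which encodes cytochrome b, stood at 3344, 3282 and 4585 FPKM in the knockout and at 4546, 5564 and 3921 FPKM in wild type (log2 change -0.33). mt-Co1, the catalytic subunit of cytochrome c oxidase and the most abundant of the 13, had 6021, 6100 and 7784 FPKM in the knockout and 8028, 7515 and 7323 FPKM in wild type. Its log2 change was -0.21, the smallest among the 3 oxidase subunits. mt-Co2, which receives electrons from cytochrome c, had 97.3, 70.3 and 95.3 FPKM in the knockout and 154, 165 and 83.7 FPKM in wild type. This gave the most negative log2 change of the 13, -0.56 (SE 0.28, limma adjusted p = 0.329). mt-Co3, the third core subunit, had 57.4, 44.8 and 59.4 FPKM in the knockout and 77.7, 97.5 and 57.5 FPKM in wild type. It had the smallest p of the 13 (log2 change -0.50, SE 0.22, limma adjusted p = 0.261), and only wild-type replicate 3 lay within the knockout range. mt-Atp6 had a log2 change of -0.38 and mt-Atp8 of 0.14.

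**Figure D2:**
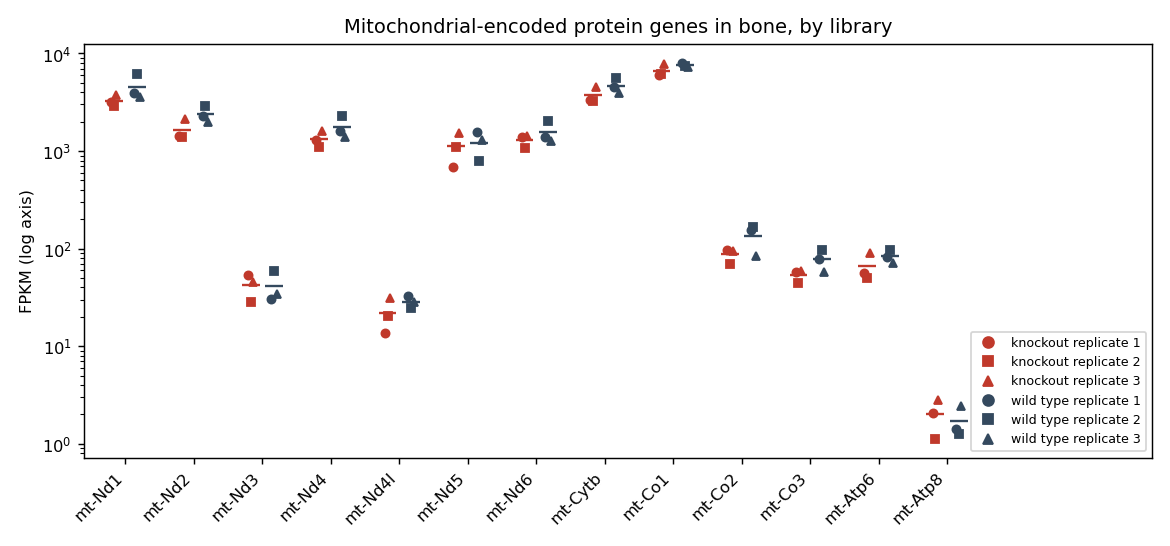
FPKM (log axis) of each mitochondrial-encoded protein gene in the 3 knockout (red, left) and 3 wild-type (blue, right) libraries, with lines at the group means. Groups overlap in all 13 genes, and knockout replicate 2 (red squares) is the lowest library in 10 of them.

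Across the 13 genes, knockout replicate 2 was the lowest library in 10 and knockout replicate 1 in 3, while wild-type replicate 2 was the highest in 9, wild-type replicate 1 in 3 and knockout replicate 3 in 1. Summed FPKM of the 13 was 17625, 17165 and 23182 in knockout replicates 1 to 3 and 23746, 27595 and 21033 in wild-type replicates 1 to 3, or 19320 ± 3349 in the knockout and 24120 ± 3297 in wild type (SD, n = 3 each). As a percentage of all recovered reads, reads of these genes made up 2.04%, 2.25% and 2.98% in the knockout and 3.26%, 3.18% and 2.71% in wild type, and the groups overlapped. The 6 genes with under 10% of stretches shared had a median log2 change of -0.29, and the 5 with over 90% had one of -0.44.

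The mitochondrial ribosomal RNAs, which are not protein genes and so not among the 13, had higher means in the knockout without passing the test. mt-Rnr2 stood at 993, 823 and 895 FPKM in the knockout and at 428, 824 and 656 FPKM in wild type (log2 change 0.55, limma adjusted p = 0.334). mt-Rnr1 had a log2 change of 0.39 (limma adjusted p = 0.625). The ratio of summed FPKM of the ribosomal RNAs to that of the 13 protein genes was 0.118, 0.0961 and 0.0802 in knockout replicates 1 to 3 and 0.0373, 0.0743 and 0.0634 in wild-type replicates 1 to 3. In this ratio the lowest knockout library exceeded the highest wild-type library. The ratio was computed after the values were seen and was not tested.

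Of the 37 nuclear genes, 1 was lower in knockout bone and none was higher. That gene was Ndufa4l2, a paralog of a cytochrome oxidase subunit that is known in mouse and human cells as a hypoxia-induced restraint on complex I activity. The remaining 36 did not pass (limma over all genes). All 37 passed the filter. The log2 change was below 0 in 33 of 37, against 40.9% of all genes tested, with a median of -0.18, against 0.06 for all genes. The count of 1 called is 1 in 37, near the background of 3.82% called lower. Groups did not overlap in 3 of 37, all lower, against 13.7% of all genes. Leaving out wild-type replicate 2 alone moved the median to 0.04, with 16 of 37 below 0. Leaving out both libraries that stood apart, knockout replicate 1 and wild-type replicate 2, gave a median of -0.12, with 26 of 37 below 0.

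Ndufa4l2 (chromosome 10, bases 127514967 to 127517154, mm10, plus strand) stood at 1.49, 1.68 and 1.32 FPKM in knockout replicates 1 to 3, against 5.10, 11.4 and 6.38 FPKM in wild-type replicates 1 to 3. These values came from 27, 32 and 25 reads in the knockout and from 115, 244 and 126 reads in wild type. Every knockout library lay below every wild-type library, and the wild-type libraries were more widely spread (SD of 0.180 FPKM in the knockout and 3.34 FPKM in wild type, n = 3 each). The ratio of means was 0.196, and the log2(FPKM + 1) change was -1.73 (SE 0.26, limma adjusted p = 0.0198). Without knockout replicate 1 the adjusted p was 0.061, and without knockout replicate 2 it was 0.0732. Its relative Ndufa4, now counted as a subunit of complex IV, was among the most abundant of the 37, at 156, 122 and 120 FPKM in the knockout and 111, 230 and 136 FPKM in wild type. Those groups overlapped (log2 change -0.20, SE 0.28, limma adjusted p = 0.756).

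**Figure D3:**
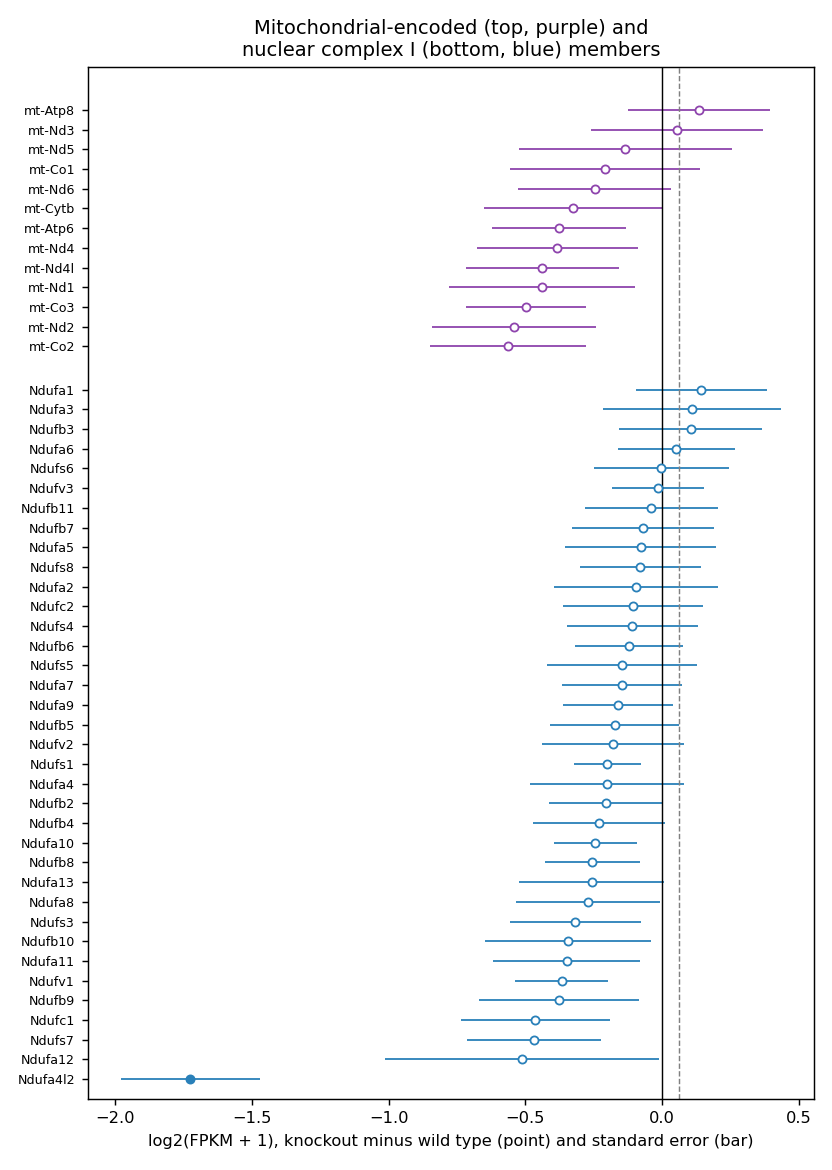
Difference of mean log2(FPKM + 1), knockout minus wild type, for the mitochondrial-encoded and nuclear genes reported, with its standard error from limma. The filled point (Ndufa4l2, -1.73) is the only one past an adjusted p of 0.05. The solid line is at 0 and the dashed line at the median of all genes tested, 0.06.

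All 7 core subunits of the matrix arm had log2 changes below 0, with a median of -0.32, and none passed (0 at an unadjusted p under 0.05, and 0 of the 5 that could be tested by voom). Without wild-type replicate 2, 5 of the 7 were below 0, and all 7 were without both libraries that stood apart. Ndufv1, which binds NADH and flavin, stood at 47.1, 35.4 and 39.2 FPKM in knockout replicates 1 to 3, against 47.3, 63.2 and 47.8 FPKM in wild-type replicates 1 to 3. The groups did not overlap, but only narrowly, since knockout replicate 1 and wild-type replicate 1 nearly met (log2 change -0.37, SE 0.17, limma adjusted p = 0.288). Ndufs1, the large iron-sulfur subunit, stood at 13.8, 12.8 and 14.1 FPKM in the knockout and at 15.2, 18.0 and 14.2 FPKM in wild type. These groups did not overlap either, with a smaller difference (log2 change -0.20, SE 0.12, limma adjusted p = 0.425). Ndufv2, an iron-sulfur subunit of the same module, had a log2 change of -0.18 with overlapping groups.

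Near the ubiquinone site, Ndufs7 carries the last iron-sulfur cluster of the chain. It stood at 57.5, 41.1 and 46.8 FPKM in knockout replicates 1 to 3 and at 55.2, 95.6 and 56.5 FPKM in wild-type replicates 1 to 3. Wild-type replicate 2 was far above the rest, and knockout replicate 1 lay above both other wild-type libraries (log2 change -0.47, SE 0.24, limma adjusted p = 0.346). Ndufs3, another core subunit, had 38.0, 25.6 and 28.5 FPKM in the knockout and 33.6, 52.8 and 30.8 FPKM in wild type, a log2 change of -0.32. Ndufs8, a carrier of iron-sulfur clusters, had 107, 67.1 and 67.9 FPKM in the knockout and 72.3, 98.4 and 81.1 FPKM in wild type, a log2 change of -0.08. Ndufv1 and Ndufs8, with Ndufa7 and Ndufv3, gave no whole reads from their FPKM values and could not be tested by voom.

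The accessory subunits ranged in log2 change from -0.51 (Ndufa12) to 0.14 (Ndufa1). Of 9 in the matrix arm, 8 were below 0, with a median log2 change of -0.09, and of 19 in the membrane arm, 16 were below 0, with a median of -0.21. Without wild-type replicate 2, 1 of 9 and 9 of 19 were below 0. Without both libraries that stood apart, 3 of 9 (median 0.03) and 14 of 19 (median -0.12) were. Limma called none of these 28 genes, none had an unadjusted p under 0.05, and voom called none. Ndufa2, a matrix-arm subunit with a thioredoxin-like fold, had the highest mean of all 37, at 208, 148 and 136 FPKM in the knockout and 133, 263 and 146 FPKM in wild type (log2 change -0.09). Ndufb11, a membrane-arm subunit encoded on the X chromosome, came next with 194, 136 and 133 FPKM in the knockout and 125, 207 and 147 FPKM in wild type (log2 change -0.04). In both, wild-type replicate 2 was the highest library and knockout replicate 1 the next.

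At the low end, Ndufb2, a membrane-arm subunit, had 3.72, 1.95 and 2.06 FPKM in the knockout and 2.90, 3.61 and 2.65 FPKM in wild type, over 5628 bases of annotated exon. Ndufa12, a matrix-arm subunit related to an assembly factor, had 10.1, 7.39 and 7.73 FPKM in knockout replicates 1 to 3 and 7.98, 31.4 and 7.13 FPKM in wild-type replicates 1 to 3. The value of wild-type replicate 2 rested on 960 reads, against 202 to 262 reads in the other libraries, and it gave the gene its large standard error (log2 change -0.51, SE 0.50). A processed pseudogene, Gm15920, shares 278 of the 50-base stretches of Ndufa12 and was listed at 42.8 FPKM in wild-type replicate 2, against 49.3 to 74.0 FPKM in the other libraries. The part of this shared sequence in the value was not tested.

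Among membrane-arm subunits of smallest p, Ndufc1 had 27.8, 19.2 and 24.0 FPKM in the knockout, against 25.6, 50.3 and 27.1 FPKM in wild type (log2 change -0.46, limma adjusted p = 0.406). Ndufa10, related to nucleoside kinases, had 26.7, 21.6 and 22.0 FPKM in the knockout, against 25.4, 33.0 and 25.7 FPKM in wild type (log2 change -0.24, limma adjusted p = 0.434). Ndufa11 had a log2 change of -0.35 (limma adjusted p = 0.532). In each, knockout replicate 1 lay above wild-type replicates 1 and 3, and wild-type replicate 2 was the highest library. At the other end, Ndufa1 (log2 change 0.14), Ndufa3 (0.11), Ndufb3 (0.10) and Ndufa6 (0.05) were the 4 nuclear genes above 0.

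Knockout replicate 1 held the highest value in 2 of the 37 nuclear genes and wild-type replicate 2 in the other 35. The lowest value lay in knockout replicate 2 for 18 genes, in wild-type replicate 1 for 14, in knockout replicate 3 for 4 and in wild-type replicate 3 for 1. Knockout replicate 1 exceeded the mean of the other knockout libraries by a median of 0.46 (log2) in the 9 nuclear genes with under 1000 bases of exon, 0.38 in the 15 with 1000 to 2000 bases and 0.33 in the 13 with more. For wild-type replicate 2 against the other wild-type libraries these medians were 0.73, 0.86 and 0.48. With each library's trend on exon length removed, the median log2 change of the 37 was -0.20, Ndufa4l2 remained called (log2 change -1.73, limma adjusted p = 0.00852) and no other member was.

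Mitochondrial and nuclear members did not separate the genotypes when set against each other. In each library the mean log2(FPKM + 1) of the nuclear members was subtracted from that of the mitochondrial members. The mitochondrial mean was 8.17, 8.02 and 8.56 in knockout replicates 1 to 3 and 8.55, 8.73 and 8.37 in wild-type replicates 1 to 3. The nuclear mean was 5.62, 5.18 and 5.23 in the knockout and 5.25, 6.04 and 5.40 in wild type. The difference came to 2.55, 2.84 and 3.33 in the knockout and to 3.30, 2.69 and 2.97 in wild type, or 2.91 ± 0.40 in the knockout and 2.99 ± 0.31 in wild type (SD, n = 3 each). The groups overlapped, and their distance of -0.08 was smaller than either spread.

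**Figure D4:**
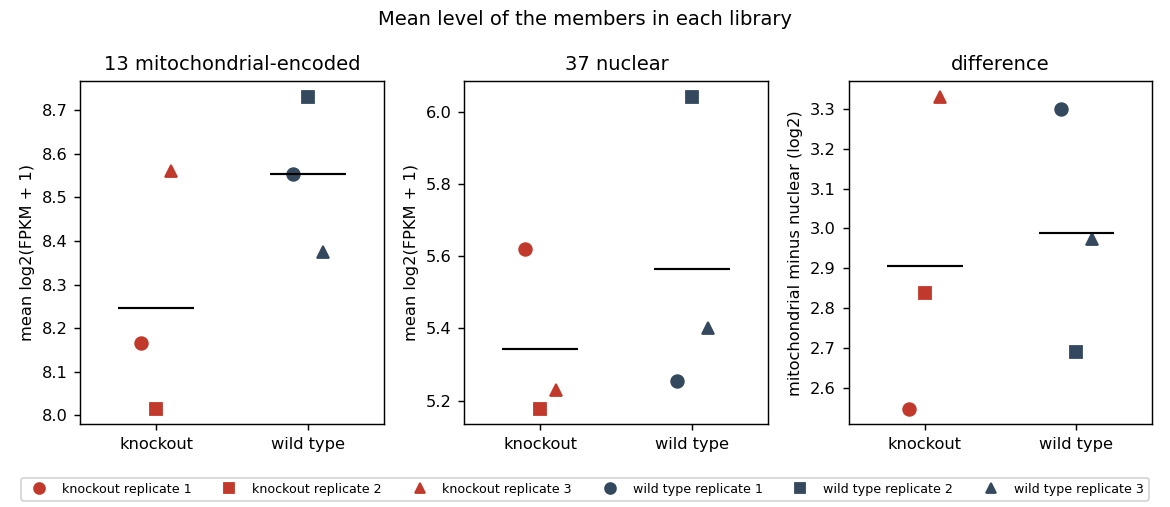
Mean log2(FPKM + 1) of the 13 mitochondrial-encoded genes, of the 37 nuclear genes, and the difference of these means in each library, with lines at the group means. The 2 libraries that stood apart, knockout replicate 1 (2.55) and wild-type replicate 2 (2.69), are the lowest in the difference.

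Both libraries that stood apart had the lowest differences, and their nuclear means were the highest of their groups (5.62 in the knockout and 6.04 in wild type). Without knockout replicate 1 the distance between genotypes turned to 0.10, and without wild-type replicate 1 to 0.07. Without both libraries that stood apart it was -0.05. The summed FPKM of the mitochondrial genes was 9.87 ± 2.82 times that of the nuclear genes in the knockout and 10.9 ± 2.41 times in wild type (SD, n = 3 each).

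The nuclear members lie on 15 chromosomes, and the motifs searched occurred in a minority of their promoters. RefSeq promoters (GRCm38.p6, 250 bases before to 50 after the start) were matched for 32 of the 37 genes and for 9275 protein-coding genes tested, and both strands were searched. The letters GCGCA and GCGC with any base between them, bound by NRF1, a known activator of respiratory genes, occurred in 7 of the 32 genes (21.9%), against 11.4% of all those genes. The letters CCGGAAG, of the GABPA type, occurred in 4 (12.5%), against 20.2%. The letters AAGATGG followed directly by CGGC, of the YY1 type, occurred in 4 (Ndufa9, Ndufs4, Ndufs6 and Ndufs7, 12.5%), against 1.84%. The GABPA and YY1 letters can overlap by 3 bases, but no member held both. These are descriptions of letters in a window, not of binding. The 2 promoters below are shown because Ndufb4 held 3 matches to the NRF1 letters and Ndufs6 held both NRF1 and YY1 letters, with matches in capitals.
Ndufb4 promoter, chr16:37654319-37654618, minus strand: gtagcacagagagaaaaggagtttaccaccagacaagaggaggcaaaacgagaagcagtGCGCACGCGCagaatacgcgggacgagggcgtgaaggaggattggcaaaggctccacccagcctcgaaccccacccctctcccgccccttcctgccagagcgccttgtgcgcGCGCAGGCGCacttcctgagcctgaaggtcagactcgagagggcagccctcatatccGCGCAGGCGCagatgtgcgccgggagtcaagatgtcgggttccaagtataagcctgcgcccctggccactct
Ndufs6 promoter, chr13:73328433-73328732, minus strand: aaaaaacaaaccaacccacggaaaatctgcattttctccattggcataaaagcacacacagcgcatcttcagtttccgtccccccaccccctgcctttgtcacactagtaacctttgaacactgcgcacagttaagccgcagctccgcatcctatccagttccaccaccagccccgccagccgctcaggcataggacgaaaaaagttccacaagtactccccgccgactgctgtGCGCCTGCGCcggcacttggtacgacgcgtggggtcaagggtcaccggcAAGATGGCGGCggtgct
Ndufb4, a membrane-arm subunit, stood at 42.3, 32.2 and 32.3 FPKM in the knockout and at 30.9, 58.1 and 40.0 FPKM in wild type. Ndufs6, which holds a zinc ion in the matrix arm, stood at 67.0, 44.6 and 52.8 FPKM in the knockout and at 43.4, 75.8 and 48.4 FPKM in wild type. Groups overlapped in both (log2 changes of -0.23 and -0.0035).

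The rest of the pathway, taken as lists of known members, had few calls. Among nuclear subunits of the other complexes, limma called 0 of 4 in complex II, 0 of 9 in complex III, 0 of 10 in complex IV and 0 of 15 in complex V, with 0 at an unadjusted p under 0.05 in each list and 0 by voom. Their median log2 changes were -0.27, -0.18, -0.11 and -0.15, near the -0.18 of the nuclear complex I genes. Sdhb, the iron-sulfur subunit of succinate dehydrogenase, had 62.9, 52.9 and 56.9 FPKM in the knockout and 66.3, 106 and 68.2 FPKM in wild type, without overlap (log2 change -0.44, limma adjusted p = 0.285). In complex V, 14 of 15 genes were below 0, against 3 of 15 without wild-type replicate 2 and 13 of 15 without both libraries that stood apart. In complexes II, III and IV, 4 of 4, 7 of 9 and 7 of 10 were below 0. These counts were 3, 3 and 0 without wild-type replicate 2, and 4, 7 and 6 without both libraries. The 15 complex I assembly factors measured had 0 calls (1 at an unadjusted p under 0.05, 0 by voom) and a median of 0.07. Among them, Ecsit was at 7.91 ± 0.22 FPKM in the knockout and 10.3 ± 1.78 FPKM in wild type (SD, n = 3 each; log2 change -0.32, limma adjusted p = 0.234).

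Genes that act on mitochondrial DNA and RNA had medians slightly above that of all genes. Of 18 tested genes of mitochondrial RNA synthesis and stability, 17 were above 0 and 1 below, against 40.9% of all genes below 0. Their median log2 change was 0.12, with 0 called (2 at an unadjusted p under 0.05, 0 by voom). Groups did not overlap in 4 of them, all higher, against 14.7% of all genes. Without both libraries that stood apart, 5 of the 18 were below 0 and the median was 0.09. Lrpprc, which stabilises mitochondrial messages, was at 9.64 ± 0.62 FPKM in the knockout and 8.13 ± 0.24 FPKM in wild type (SD, n = 3 each; log2 change 0.22, limma adjusted p = 0.283). The 10 genes of mitochondrial DNA copying and upkeep had a median of 0.08 and 0 calls (0 at an unadjusted p under 0.05, 0 by voom). Of 77 tested mitochondrial ribosomal proteins, 1 was called, a share near the 1.34% of all genes called higher. It was Mrpl19, a protein of the large subunit. It stood at 8.84, 6.76 and 6.69 FPKM in the knockout and at 4.27, 4.56 and 4.28 FPKM in wild type (log2 change 0.64, SE 0.13, limma adjusted p = 0.0408). The lowest knockout library exceeded the highest wild-type library. Leaving out any 1 library ended the call, with adjusted p-values of 0.074 (without wild-type replicate 2) to 0.136 (without wild-type replicate 1). The median of the 77 was 0.11.

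Of 7 tested regulators of mitochondrial genes, 1 fell, against 3.82% of all genes called lower. The gene was Perm1, a muscle regulator of oxidative metabolism genes. It stood at 2.57, 3.05 and 4.03 FPKM in knockout replicates 1 to 3, against 8.23, 13.6 and 7.14 FPKM in wild-type replicates 1 to 3 (log2 change -1.31, SE 0.24, limma adjusted p = 0.0336). The call ended when knockout replicate 1 (adjusted p = 0.0944), knockout replicate 2 (0.126) or wild-type replicate 1 (0.0979) was left out. Without both libraries that stood apart, 0 of the 7 regulators were called. Gabpa had a log2 change of 0.21 and Yy1 of 0.15, neither past the test. The muscle isoforms of complex IV subunits showed the same direction as Perm1 without being called (0 of 3, 1 at an unadjusted p under 0.05, 0 by voom). Cox6a2 stood at 82.4, 67.1 and 99.9 FPKM in the knockout and at 135, 300.4 and 113 FPKM in wild type (log2 change -1.01, limma adjusted p = 0.178). Cox7a1 and Cox8b had log2 changes of -0.96 and -0.87, and groups did not overlap in any of the 3, all lower, against 13.7% of all genes. The median of the 3 was -0.96, and -0.47 without both libraries that stood apart.

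**Figure D5:**
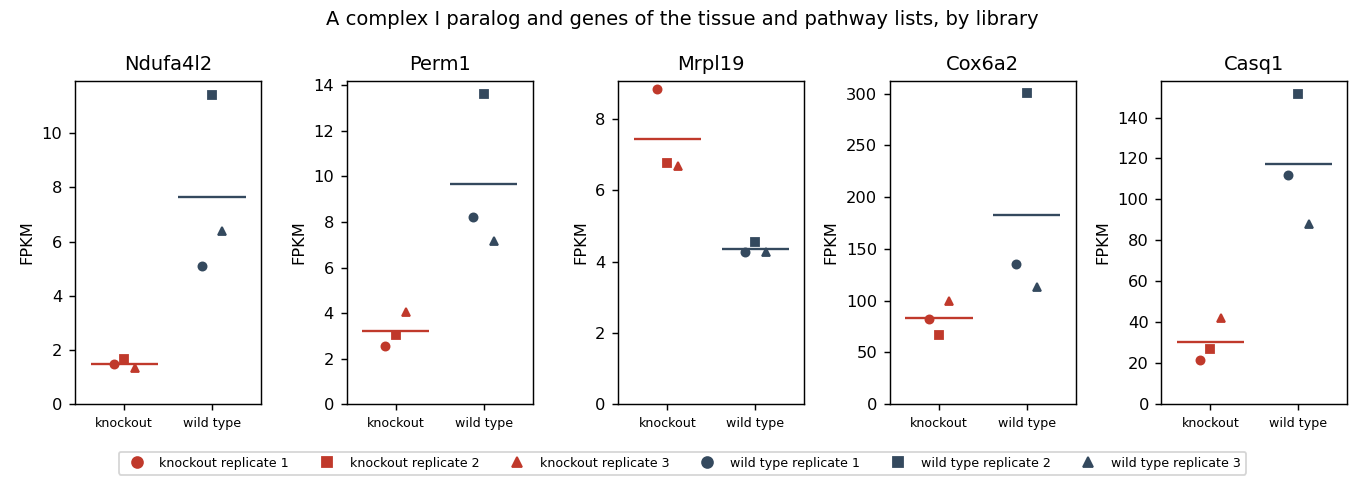
FPKM of Ndufa4l2, the regulator Perm1, the mitochondrial ribosomal protein Mrpl19, the muscle oxidase subunit Cox6a2 and the muscle marker Casq1 in each library, with lines at the group means. Knockout libraries lie below all wild-type libraries in 4 of the genes and above them in Mrpl19, and wild-type replicate 2 is the highest library in the 4.

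Several lists of cell type markers held genes that passed the test, read here against the 3.82% of all genes called lower and the 1.34% called higher. In bulk RNA, fewer cells of a type and less RNA per cell cannot be told apart. Of 17 tested skeletal muscle genes, 5 fell and all 17 were below 0, with a median log2 change of -1.03. Their summed level was 2616, 2798 and 3953 FPKM in knockout replicates 1 to 3, against 6159, 9242 and 5153 FPKM in wild-type replicates 1 to 3. Casq1, the calcium store protein of muscle, stood at 21.7, 27.0 and 42.0 FPKM in the knockout and at 112, 151 and 88.2 FPKM in wild type (log2 change -1.94, limma adjusted p = 0.0198). Without both libraries that stood apart, 0 of the 17 were called, and all 17 were still below 0. Leaving out any 1 library left 0 to 2 called. Casq1 lost its call with knockout replicate 1 (adjusted p = 0.0548), knockout replicate 2 (0.0839) or wild-type replicate 1 (0.0769) left out.

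Against the same 3.82% called lower among all genes, fat cell markers fell in 7 of 9 (median log2 change -1.39), with summed levels of 121 to 199 FPKM in knockout and 560 to 847 FPKM in wild-type libraries. Chondrocyte markers fell in 9 of 10 (median -3.21), with summed levels of 12.8 to 56.7 FPKM in knockout and 307 to 439 FPKM in wild-type libraries. Of osteoblast markers 3 of 10 fell (median -1.43), and of osteoclast markers 1 of 9 (median -1.06). Summed osteoclast levels were 489 to 692 FPKM in knockout and 969 to 1633 FPKM in wild-type libraries. Neutrophil markers rose in 3 of 12 (median 0.65), against 1.34% of all genes called higher, with summed levels of 41782 to 54164 FPKM in knockout and 22520 to 42658 FPKM in wild-type libraries. Of 10 B cell markers 2 fell, Vpreb1 and Igll1, with log2 changes of -2.32 and -2.06. The median of the 10 was -0.21 and the highest log2 change 0.37. Their summed levels overlapped, at 204 to 368 FPKM in knockout and 287 to 348 FPKM in wild-type libraries. Of 10 red cell precursor markers none was called (0 at an unadjusted p under 0.05, 0 by voom, median 0.07). Of the brown fat list, 1 of 4 genes was tested, Dio2, which rose (3.98 ± 0.51 FPKM in the knockout and 2.14 ± 0.20 FPKM in wild type, SD, n = 3 each). The rest of that list was below the filter. Summed levels of the 4 overlapped, at 3.63 to 5.10 FPKM in knockout and 2.18 to 3.77 FPKM in wild-type libraries. Leaving out any 1 library left 2 to 6 fat cell, 4 to 9 chondrocyte, 1 to 3 osteoblast, 0 to 1 osteoclast, 0 to 2 neutrophil and 0 to 2 B cell markers called, and Dio2 was no longer called (adjusted p of 0.058 to 0.142). No marker of these lists was at 0 in all libraries. The part of these cell types in the levels of Ndufa4l2, Perm1 and the mitochondrial genes was not tested.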

How the data were processed

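Bone RNA of 3 knockout and 3 wild-type libraries was extracted with Trizol and made into libraries with an Illumina TruSeq kit, per the labels' protocols. FPKM per gene, 1 column per library, is the unit the authors deposited. Bowtie 0.12.2 and build mm10 are named in the submitters' processing notes, while the counting tool, use of strand and scaling were not given in the sources used here. Gene identifiers were matched to GENCODE M21 (54495 matched, 37 did not). FPKM multiplied by exon length moved in fixed steps, which gave whole reads (tolerance 0.01) for 96.9% of the 29615 genes above 0, and these reads entered limma's voom as an alternative. Read counts carry counting error as well as the spread between libraries.

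Values were analysed as log2(FPKM + 1), which understates changes of low genes, for genes with a mean of at least 1 FPKM. Groups were compared with limma 3.58.1 in R 4.3.3 (trended variances, Benjamini-Hochberg over all 13619 genes, threshold 0.05), and the code was tested on simulated data. The simulated libraries had no trend on exon length and none stood apart, so they cannot show how the test behaves with these features. All adjusted p-values are limma's. Protein-coding type was required of both the mt- and the Nduf symbols. Members, lists and tests were chosen with earlier results of these data known. Genes named are the 13 mitochondrial genes, the 7 core subunits, Ndufa4, Ndufa4l2, the 10 nuclear members of smallest p, the 3 highest and 3 lowest, and up to 3 genes per other list. A gene that this rule names is not reported here. Further nuclear members (those above 0, Ndufb4, Ndufs6), mt-Rnr1, mt-Rnr2 and the pseudogenes were named after their values were seen. Sequence sharing was computed from GENCODE transcripts with stretches of 50 bases. Figures were drawn with matplotlib 3.10.9. Alternatives covered pseudocount, filter, scaling, variance model, weights, replicate block, exon-length trend, voom and leaving out libraries.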

Additional observations from a re-analysis of the deposited data

How the results depend on the processing

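Over 19 alternatives, the 13 mitochondrial genes had 0 calls throughout and a median log2 change of -0.53 to -0.16 (-0.38 as reported). The nuclear median ranged from -0.32 to 0.04 (-0.18 as reported), above 0 only without wild-type replicate 2, and was -0.18 when the Nduf symbols of other gene types were added, an alternative chosen after seeing the data. The mitochondrial minus nuclear distance ranged from -0.30 to 0.10. All of these shifts were within the spread between replicates. Nuclear members called numbered 1 as reported, 0 with no filter, 0 with a mean FPKM of at least 5 (which removes Ndufa4l2), 3 with array weights (Ndufa4l2, Ndufv1, Ndufs7), and 0 to 1 when leaving out each library. Ndufa4l2 ranged from -2.25 to -0.93 in log2 change and from 0.00075 to 0.0732 in adjusted p, with 0.064 under no filter.

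Of all genes, 703 were called as reported, 143 with no filter, 365 with a mean FPKM of at least 5, 451 with TPM over nuclear genes only, 3354 with array weights, 1215 with the length trend removed, 239 without both libraries that stood apart, and 62 to 418 when leaving out each library. voom called 819 of 12950. Of the pathway lists 2 genes were called as reported, 0 with no filter, 1 with a mean FPKM of at least 5, 1 with TPM, 1 with TPM over nuclear genes only, 12 with array weights, 0 without both libraries, and 0 to 1 when leaving out each library. Cell type markers called numbered 31 as reported, 11 with no filter, 52 with array weights, 16 without both libraries, and 7 to 21 when leaving out each library. The causes were not tested.

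Deviations of same-numbered libraries from their group means correlated at -0.49, -0.27 and 0.16. Deviations within a group of 3 libraries depend on one another, and knockout replicate 1 correlated at 0.55 with wild-type replicate 2. These values therefore cannot decide whether replicate numbers pair the samples. The replicate block gave 127 genes, 0 pathway genes and 15 markers, and Ndufa4l2 stayed called (adjusted p = 0.0431). With 3 libraries a group, depth limits statements on mt-Atp8, at 4 to 10 reads a library.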

Other observations

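A further 4 symbols fit the Nduf pattern without being protein-coding. Ndufb1-ps, annotated as a bidirectional promoter lncRNA, stood at 42.6, 37.0 and 30.3 FPKM in knockout replicates 1 to 3 and at 21.6, 43.9 and 32.0 FPKM in wild-type replicates 1 to 3 (log2 change 0.21, limma adjusted p = 0.719). Ndufb4c, a processed pseudogene, had 3.27 ± 1.44 FPKM in the knockout and 3.86 ± 1.79 FPKM in wild type (SD, n = 3 each), and Ndufb4 shares 341 of its 50-base stretches with it. Ndufs6b was below the filter, with 1 to 7 reads in knockout and 2 to 15 reads in wild-type libraries. Ndufa11b was listed at 0 in all 6 libraries.

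Gm28661, the nuclear copy of mt-Co2, was listed at 56.3, 46.2 and 56.7 FPKM in the knockout and at 54.3, 109 and 50.4 FPKM in wild type. Gm28439, the copy of most of mt-Nd4, was at 12.1, 13.2 and 25.5 FPKM in the knockout and at 21.5, 15.2 and 20.5 FPKM in wild type.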
